A study of Homo sapiens with 30 samples.

Results

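The 7 genes described here act in zinc handling and were followed in PC3 cells, a human prostate cancer cell line, across 30 sequenced libraries. They are the metallothioneins MT1E, MT1F, MT1M, MT1X and MT2A, the zinc-sensing transcription factor MTF1, and the zinc exporter SLC30A1. They were chosen by name, with earlier results of these data known, as 7 of the 58735 genes in the count table. Of these, 6 had at least 1 count and passed the filter on low counts, among 17499 genes tested in all, and MT1E had no count in any library.

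Metallothioneins are small, cysteine-rich proteins that hold zinc and copper through the sulphur of their cysteines and also bind toxic metals such as cadmium. When free zinc in the cell rises, MTF1 binds short DNA sequences called metal response elements and turns on the metallothionein genes and SLC30A1, whose product carries zinc out across the plasma membrane. Metallothionein genes are also known to respond to glucocorticoids and to oxidative stress, and the normal prostate is known for a high zinc content that is lower in prostate cancer.

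All cells were PC3 and were treated for 48 h. The groups were DMSO (the solvent control), SGI-1776 at 1500 nM, SGI-1776 at 3750 nM, SGI-1776-VHL-02 at 1500 nM and SGI-1776-VHL-02 at 3750 nM, with 6 libraries each. SGI-1776 inhibits the PIM kinases, a small family of serine/threonine kinases, and the labels call SGI-1776-VHL-02 a PROTAC, a class of molecule that brings a protein to a ubiquitin ligase for degradation. The comparison asks how inhibiting and degrading these kinases differ in the transcripts they leave. The libraries of each group are numbered Rep 1 or Rep 2, with 3 in each, and the labels do not say which came from separate cultures. The values below are therefore spreads between libraries, which may in part be technical.

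The library totals ran from 22520292 to 48968707 counts. Mitochondrially encoded genes held 1.94 to 3.96% of the counts in Rep 1 and 0.296 to 1.67% in Rep 2, so the Rep numbers differ in this measure within every group. The genes checked as markers of the PC3 line were KRT8, KRT18, KRT19, EPCAM, CDH1 and VIM. Of these, 6 of 6 exceeded 1 CPM (read counts scaled to a common effective library size), with a sum of 1775 to 2422 CPM. The prostate-specific antigen gene KLK3 was at 0 in all libraries. Leukocyte markers summed to 0.318 to 1.14 CPM, with 0 of 5 over 1 CPM, and 3 of 8 fibroblast and endothelial markers exceeded 1 CPM, with a summed level of 45.9 to 80.6 CPM. In bulk RNA, fewer cells of a type and less RNA per cell cannot be told apart.

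The 5 metallothionein genes lie together on chromosome 16 (GRCh38), on the plus strand, inside 75998 bases from 56608199 to 56684196. Their coding sequences are shown for the 3 members whose transcripts passed a test, because they are so alike that their reads could be confused. Each is 183 bases long and split over 3 coding exons. Capitals mark the codons for cysteine, the metal-binding residue, which are 20 of the 61 codons in each, or 32.8%.
MT2A: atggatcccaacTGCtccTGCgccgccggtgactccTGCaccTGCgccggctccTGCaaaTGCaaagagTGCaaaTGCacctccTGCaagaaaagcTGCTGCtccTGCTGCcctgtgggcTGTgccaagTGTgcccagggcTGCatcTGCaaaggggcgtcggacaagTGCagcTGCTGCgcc
MT1X: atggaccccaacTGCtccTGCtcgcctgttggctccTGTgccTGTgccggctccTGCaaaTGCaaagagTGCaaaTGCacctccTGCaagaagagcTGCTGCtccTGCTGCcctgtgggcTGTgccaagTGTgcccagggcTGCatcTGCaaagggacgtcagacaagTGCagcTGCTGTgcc
MT1F: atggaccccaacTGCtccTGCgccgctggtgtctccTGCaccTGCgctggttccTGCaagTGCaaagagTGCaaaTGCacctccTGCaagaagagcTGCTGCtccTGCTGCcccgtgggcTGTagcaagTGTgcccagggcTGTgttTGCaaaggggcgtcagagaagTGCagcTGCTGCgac
Compared position by position, MT2A and MT1X shared 169 of the 183 bases (92.3%), MT2A and MT1F shared 167 (91.3%), and MT1X and MT1F shared 162 (88.5%), the lowest of the 10 pairs. The coding bases run from 56608656 to 56609351 for MT2A, from 56682541 to 56684046 for MT1X and from 56658059 to 56659161 for MT1F. The bases outside the coding sequences were not compared on their own. Of the 50-base stretches in the principal transcripts, 95.1% for MT2A, 96.4% for MT1F and 54.9% for MT1X occurred in no other annotated gene's transcript. Every stretch of 100 bases in the principal transcripts of MT2A and MT1F occurred in no other annotated gene's transcript, against 80.9% of such stretches for MT1X. The span of MT1X, introns included, also shares 1727 bases on the same strand with the span of AC026461.1, which had 0 counts in all libraries. Reads that fall in both genes may have been left out, so the MT1X level is the least certain of the 3.

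The promoters of the members with an entry in the RefSeq table (GRCh38.p14) are shown for the metal response element, the letters by which MTF1 recognises its targets. Capitals mark each match to TGCACNC or TGCGCNC on either strand in the 250 bases before the start that RefSeq gives, which can differ from the gene start in the count table.
MT2A, plus strand of chr16:56608334-56608583: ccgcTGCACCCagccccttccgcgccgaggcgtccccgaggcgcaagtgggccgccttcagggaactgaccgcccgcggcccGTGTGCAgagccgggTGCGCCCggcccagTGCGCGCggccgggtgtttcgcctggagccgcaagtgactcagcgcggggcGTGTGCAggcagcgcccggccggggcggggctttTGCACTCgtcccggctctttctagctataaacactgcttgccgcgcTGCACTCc
MT1X, plus strand of chr16:56682220-56682469: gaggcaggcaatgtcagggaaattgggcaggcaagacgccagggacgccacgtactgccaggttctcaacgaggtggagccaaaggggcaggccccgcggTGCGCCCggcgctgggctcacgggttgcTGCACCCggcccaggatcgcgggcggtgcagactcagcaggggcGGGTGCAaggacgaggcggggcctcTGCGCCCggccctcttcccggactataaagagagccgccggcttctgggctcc
SLC30A1, minus strand of chr1:211579162-211579411: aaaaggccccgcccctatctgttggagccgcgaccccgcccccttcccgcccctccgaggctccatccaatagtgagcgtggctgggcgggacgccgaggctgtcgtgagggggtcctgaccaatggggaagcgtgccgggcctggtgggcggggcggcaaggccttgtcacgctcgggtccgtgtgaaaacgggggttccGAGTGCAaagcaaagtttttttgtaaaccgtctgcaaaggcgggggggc
MT2A had 7 matches, a number reached by 0.0313% of the 35116 promoter windows of this length in the table. MT1X had 4, reached by 0.37% of windows. SLC30A1 had 1, and 24.8% of windows had at least 1. MTF1, whose window lies at chr1:37859593-37859842 on the minus strand, had 0. MT1E, MT1F and MT1M were not examined for this. A match is a description of the letters and not a bound site.

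MT2A (ENSG00000125148, 16:56608199-56609497), the main metallothionein of most human tissues, carried nearly all of the metallothionein signal. It held 97.3% of the counts of the 5 member metallothioneins over all libraries, against 1.60% for MT1F, 0.725% for MT1X and 0.343% for MT1M. Per kilobase of annotated exon, the MT2A level averaged 207 CPM, which ranked 134 among all genes of the table, while MT1F averaged 2.35, MT1X 1.14 and MT1M 1.00 CPM per kilobase. On the same scale SLC30A1 averaged 5.86 and MTF1 3.47 CPM per kilobase. The annotated length was 1773 bases for MT1X and 1889 for MT1F, against 450 and 690 bases in their principal transcripts. For MT2A and MT1M it was 1299 and 942 bases, against 786 and 829. Comparisons of these levels between genes therefore depend on the length used.

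MT2A was lowest with SGI-1776 and highest with SGI-1776-VHL-02. In DMSO its level ran from 238 CPM, through a median of 257, to 301 CPM (mean 263 ± 22.9, SD, n = 6). With SGI-1776 it ran from 217 to 264 CPM with a median of 241 at 1500 nM (mean 240 ± 18.1), and from 201 to 248 CPM with a median of 223 at 3750 nM (mean 225 ± 20.1). With SGI-1776-VHL-02 it ran from 271 to 297 CPM with a median of 280 at 1500 nM (mean 282 ± 9.83), and from 287 to 360 CPM with a median of 335 at 3750 nM (mean 332 ± 26.6). At each dose the 2 compounds' libraries did not overlap: the lowest SGI-1776-VHL-02 library lay above the highest SGI-1776 library. Both compounds overlapped with DMSO at both doses. How many other genes had separate libraries was not counted, here or in the later statements of this kind. The test described below called 25.2% of all tested genes between the compounds at 1500 nM and 31.2% at 3750 nM, in either direction.

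**Figure D1:**
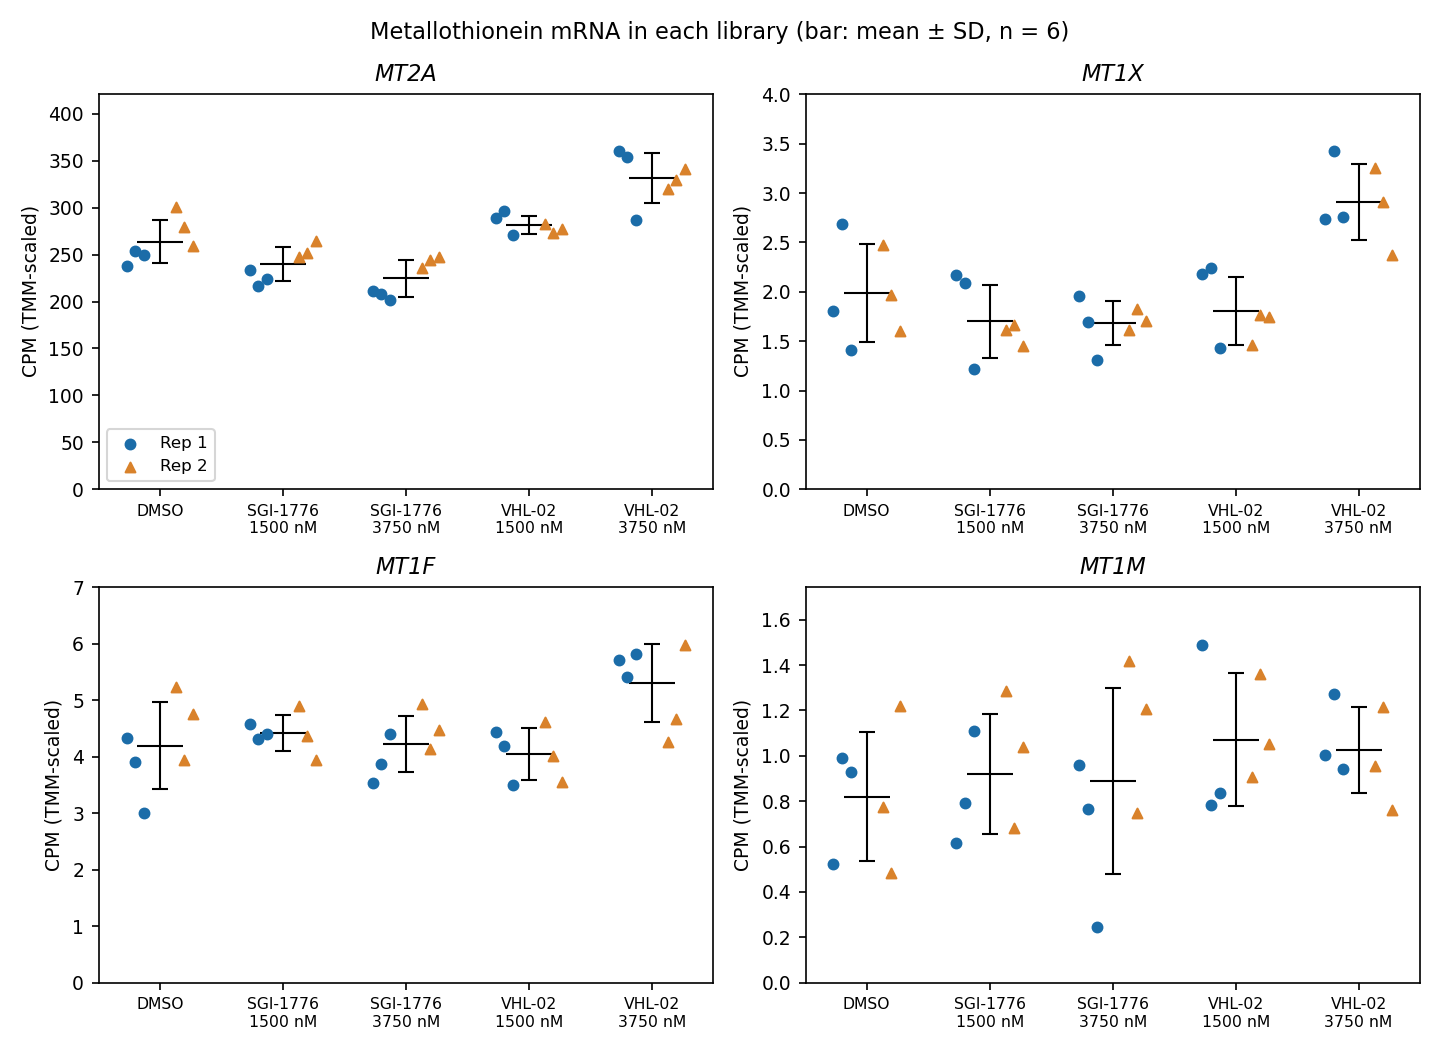
Levels of MT2A, MT1F, MT1X and MT1M in CPM in each library of the 5 groups, with the mean and SD of 6 libraries and with Rep 1 and Rep 2 drawn apart; "VHL-02" stands for SGI-1776-VHL-02. The MT2A libraries of SGI-1776-VHL-02 at 3750 nM lie between 287 and 360 CPM, all above the SGI-1776 libraries of the same dose, and the MT1X libraries are separate in the same pair of groups.

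Differences were tested with edgeR's quasi-likelihood test on the raw counts, and p-values were adjusted over the 17499 genes by Benjamini-Hochberg, with 0.05 as the threshold. Comparisons that share a group are not independent of each other. Between the compounds at 3750 nM, MT2A was 1.48-fold higher with SGI-1776-VHL-02 than with SGI-1776, a log2 fold change of 0.56 ± 0.06 (SE; 95% interval 0.44 to 0.69; adjusted p = 9.88e-09). The lower dose separated the compounds less, by 0.23 ± 0.06 (0.11 to 0.36; adjusted p = 0.00422). In the libraries of Rep 2 alone, 3 per group, this lower-dose difference was 0.13 and missed the threshold (adjusted p = 0.0738). With the 3 libraries of each Rep summed to 1 sample and no block, MT2A and MT1X still passed between the compounds at 3750 nM and no other member call was kept, whereas with the Rep number as a block the summed samples kept every member call made here without the block.

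The compounds lay on either side of DMSO for this gene. SGI-1776-VHL-02 at 3750 nM raised MT2A by a log2 fold change of 0.33 ± 0.06 (adjusted p = 0.000101), and SGI-1776 at 3750 nM lowered it, with a log2 fold change of -0.23 ± 0.06 (adjusted p = 0.00308). At 1500 nM the values were 0.10 (95% interval -0.03 to 0.22; adjusted p = 0.439) for SGI-1776-VHL-02 and -0.14 (-0.26 to -0.01; adjusted p = 0.144) for SGI-1776. With the Rep number as a block the latter passed narrowly (adjusted p = 0.0477), and it was lost again when the libraries of a Rep were also summed (adjusted p = 0.152). In order of level the groups were SGI-1776-VHL-02 3750 nM, SGI-1776-VHL-02 1500 nM, DMSO, SGI-1776 1500 nM and SGI-1776 3750 nM, and of these neighbours only the first pair differed past the threshold without a block (log2 fold change 0.24 ± 0.06; adjusted p = 0.00488).

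The step from 1500 to 3750 nM moved MT2A differently under the 2 compounds. It was 0.24 for SGI-1776-VHL-02 and -0.09 (95% interval -0.22 to 0.03; adjusted p = 0.412) for SGI-1776, and the test of the difference itself gave 0.33 ± 0.09 on the log2 scale (0.16 to 0.50; adjusted p = 0.0273). This last call is the least firm: it was lost in 11 of the 30 fits that each left out 1 library, with adjusted p-values from 0.00987 to 0.0829.

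MT2A differed between the Reps in some groups. The mean was 247 ± 8.30 CPM in Rep 1 and 280 ± 20.8 CPM in Rep 2 of DMSO (SD, n = 3 libraries each). It was 225 ± 8.48 and 255 ± 8.54 CPM with SGI-1776 at 1500 nM, and 207 ± 4.89 and 242 ± 5.96 CPM at 3750 nM. With SGI-1776-VHL-02 the Reps were closer, at 286 ± 13.1 and 278 ± 5.02 CPM at 1500 nM and 334 ± 40.6 and 330 ± 10.6 CPM at 3750 nM. Within each Rep the libraries of the 2 compounds were separate at both doses, and so were those of both 3750 nM groups from DMSO. The mitochondrial share differs between the same Reps, and its part in these levels was not tested.

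MT1X (ENSG00000187193, 16:56682424-56684196), a minor metallothionein isoform here, passed the test only in comparisons that include SGI-1776-VHL-02 at 3750 nM, the group with the highest MT2A. Its level in DMSO ran from 1.41 CPM, through a median of 1.89, to 2.69 CPM (mean 1.99 ± 0.498, SD, n = 6). It averaged 1.70 ± 0.369 CPM with SGI-1776 at 1500 nM, 1.69 ± 0.222 at 3750 nM and 1.80 ± 0.342 with SGI-1776-VHL-02 at 1500 nM. With SGI-1776-VHL-02 at 3750 nM it ran from 2.37 through 2.83 to 3.43 CPM (mean 2.91 ± 0.382), above every library of SGI-1776 at 3750 nM (1.31 to 1.96 CPM) and of SGI-1776-VHL-02 at 1500 nM (1.44 to 2.24 CPM), and overlapping with DMSO.

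At 3750 nM MT1X was 1.72-fold higher with SGI-1776-VHL-02 than with SGI-1776 (log2 fold change 0.78 ± 0.16, SE; 95% interval 0.47 to 1.10; adjusted p = 0.000197). It rose against DMSO by 0.55 ± 0.15 (0.24 to 0.86; adjusted p = 0.00865) and from the lower to the higher dose of SGI-1776-VHL-02 by 0.68 ± 0.15 (adjusted p = 0.00150). The compounds' difference at 1500 nM was 0.09 (-0.23 to 0.42; adjusted p = 0.706), an interval that holds both no change and the size seen for MT2A. The difference between the compounds' dose steps was 0.69 ± 0.22 and missed the threshold (adjusted p = 0.105). The rise against DMSO missed the threshold in Rep 2 alone (0.46; adjusted p = 0.0686) and in Rep 1 alone (0.61; adjusted p = 0.0887). MT1X had 1675 counts in all libraries together. At the mean counts of the 5 groups, counting error alone gives a coefficient of variation of 11.4 to 15.4% for MT1X, against 1.06 to 1.33% for MT2A.

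MT1F (ENSG00000198417, 16:56657694-56660698), another minor isoform, had a smaller change in the same group. In DMSO it ran from 3.01 through a median of 4.13 to 5.24 CPM (mean 4.20 ± 0.771, SD, n = 6), and with SGI-1776-VHL-02 at 3750 nM from 4.25 through 5.56 to 5.99 CPM (mean 5.31 ± 0.694). The other means were 4.42 ± 0.315 and 4.23 ± 0.494 CPM with SGI-1776 at 1500 and 3750 nM and 4.05 ± 0.458 CPM with SGI-1776-VHL-02 at 1500 nM. The 3750 nM SGI-1776-VHL-02 libraries overlapped with each of the other groups. MT1F rose against DMSO by 0.34 ± 0.11 (adjusted p = 0.0210), against SGI-1776 at 3750 nM by 0.33 ± 0.11 (adjusted p = 0.0191) and from the lower dose by 0.39 ± 0.11 (adjusted p = 0.00848). In Rep 2 alone these were 0.09, 0.14 and 0.30, with adjusted p-values of 0.757, 0.580 and 0.191, so none of the MT1F calls was kept there.

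MT1M (ENSG00000205364, 16:56632233-56633986) was near the limit of what these depths can show. It had 6 to 50 counts per library, and its group means were 0.820 ± 0.283 CPM in DMSO, 0.921 ± 0.265 and 0.890 ± 0.408 with SGI-1776 at 1500 and 3750 nM, and 1.07 ± 0.292 and 1.02 ± 0.190 with SGI-1776-VHL-02 at 1500 and 3750 nM. The groups overlapped throughout, and no comparison passed. For the compounds at 3750 nM the difference was 0.20 with a 95% interval of -0.36 to 0.75 (adjusted p = 0.644), which holds both 0 and the change of MT2A.

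MT1E (ENSG00000169715, 16:56625475-56627112), a metallothionein whose loss has been described in some cancers, had 0 counts in all 30 libraries. A count of 0 allows up to 3 counts, or 0.0613 to 0.133 CPM depending on the library, and covers counting error only. Its transcript is distinct at 94.7% of its 50-base stretches. Of the 16 other metallothionein genes and pseudogenes in the table, 8 had no count either, among them MT1A, MT1G and MT1H, and the other 8 had 1 to 77 counts summed over all libraries, too few to pass the filter. Metallothionein RNA in these cells was thus measured from MT2A, MT1F, MT1X and MT1M.

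MTF1 (ENSG00000188786, 1:37809567-37859620, minus strand), the transcription factor that senses zinc, stayed within a narrow range. Its group means lay between 27.2 ± 1.32 CPM (SGI-1776 3750 nM) and 28.6 ± 1.55 CPM (SGI-1776-VHL-02 1500 nM; SD, n = 6 each), and the 30 libraries ran from 24.5 to 30.6 CPM. All groups overlapped. No comparison passed (adjusted p from 0.531 to 0.992), and the difference between the compounds at 3750 nM was 0.02 with a 95% interval of -0.07 to 0.12. That interval leaves out a change of the size of MT2A at this dose. It concerns the MTF1 transcript, while the activity of the MTF1 protein was not measured. An opposite-strand pseudogene overlaps MTF1 over 691 bases and had 1 count in all libraries.

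SLC30A1 (ENSG00000170385, 1:211571568-211578742, minus strand), the plasma-membrane zinc exporter, differed more between Reps than between treatments. In DMSO its level ran from 23.2 CPM through a median of 29.02 to 37.3 CPM (mean 29.9 ± 5.94, SD, n = 6). The other means were 34.5 ± 5.82 and 33.9 ± 3.41 CPM with SGI-1776 at 1500 and 3750 nM, and 29.7 ± 4.42 and 32.5 ± 6.49 CPM with SGI-1776-VHL-02 at 1500 and 3750 nM, all overlapping. Rep 2 was above Rep 1 in every group, by 0.21 to 0.51 on the log2 scale, with means of 34.6 ± 3.92 against 25.2 ± 2.44 CPM in DMSO and 38.1 ± 2.86 against 26.8 ± 0.787 CPM with SGI-1776-VHL-02 at 3750 nM (n = 3 libraries each). The mitochondrial share was lower in Rep 2, and its part in this was not tested.

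**Figure D2:**
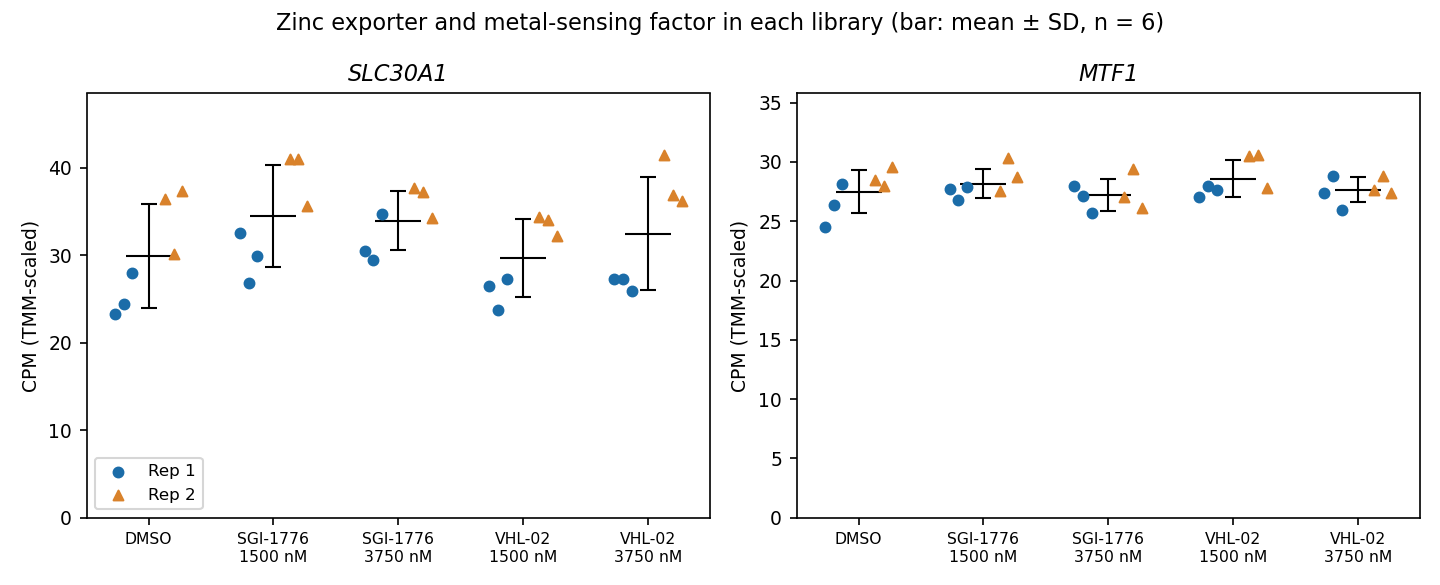
Levels of SLC30A1 and MTF1 in CPM in each library of the 5 groups, with the mean and SD of 6 libraries and with Rep 1 and Rep 2 drawn apart; "VHL-02" stands for SGI-1776-VHL-02. The Rep 2 libraries of SLC30A1 lie above those of Rep 1 in each group on average, while MTF1 stays between 24.5 and 30.6 CPM.

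Without a block no comparison of SLC30A1 passed. With the Rep number as a block, SLC30A1 rose with SGI-1776 against DMSO, by 0.21 ± 0.06 at 1500 nM (adjusted p = 0.0144, against 0.341 without the block) and by 0.20 ± 0.06 at 3750 nM (adjusted p = 0.0123, against 0.295). It was lower with SGI-1776-VHL-02 than with SGI-1776 at 1500 nM, by a log2 fold change of -0.22 ± 0.06 (adjusted p = 0.00639, against 0.225). At 3750 nM the compounds' difference was -0.07 (95% interval -0.33 to 0.20; adjusted p = 0.754, and 0.343 with the block). In Rep 1 alone, 2 SLC30A1 values at 3750 nM passed, the change with SGI-1776 against DMSO (0.33; adjusted p = 0.00511) and the difference of SGI-1776-VHL-02 from SGI-1776 (-0.23; adjusted p = 0.0396). In Rep 2 alone these were 0.06 (adjusted p = 0.632) and 0.06 (adjusted p = 0.687), so the first was smaller and the second had the other sign. At 3750 nM of SGI-1776, SLC30A1 rose and MT2A fell in the blocked fits, both per library and with the libraries of a Rep summed.

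**Figure D3:**
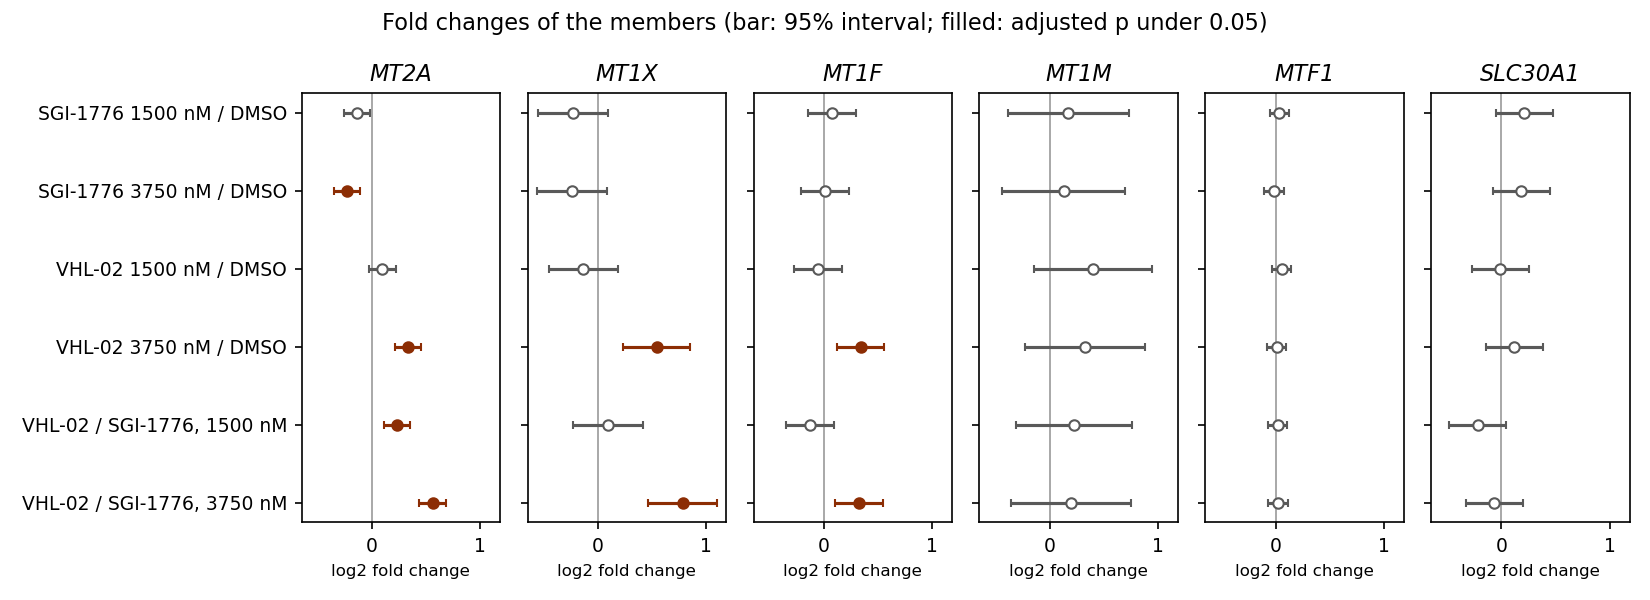
Log2 fold changes of the 6 tested members in the comparisons with DMSO and between the compounds, with 95% intervals; "VHL-02" stands for SGI-1776-VHL-02 and filled points have an adjusted p under 0.05. MT2A, MT1X and MT1F are above 0 in both comparisons of SGI-1776-VHL-02 at 3750 nM, at 0.33 to 0.78, and MTF1 stays near 0.

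Counted over the 6 tested members, most calls fell on the 3750 nM dose of SGI-1776-VHL-02. The members were chosen with earlier results of these data known, and the metallothioneins are alike in sequence and lie together on chromosome 16. The shares of all genes beside these counts are therefore a description and not a test of the members as a set. Against DMSO it raised 3 of 6 (MT2A, MT1X, MT1F), where 11.5% of all tested genes rose, and against SGI-1776 at 3750 nM the same 3 were higher, where 17.6% of all tested genes were higher. From 1500 to 3750 nM of SGI-1776-VHL-02 these 3 rose as well, against 9.23% of tested genes. SGI-1776-VHL-02 at 1500 nM changed 0 of 6 against DMSO (1.92% of all tested genes changed), and against SGI-1776 at 1500 nM only MT2A was higher (14.4% of all tested genes were higher).

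SGI-1776 at 3750 nM lowered 1 of 6, MT2A, where 18.4% of all tested genes fell, and at 1500 nM it changed 0 of 6, where 12.9% of all tested genes changed. Between its doses 0 of 6 changed, against 9.15% of tested genes. In the test of the dose steps 1 of 6, MT2A, was called higher, against 1.66% of tested genes. With the Rep number as a block, MT2A and SLC30A1 were called in SGI-1776 at 1500 nM against DMSO (21.6% of all tested genes were called), in SGI-1776 at 3750 nM against DMSO (44.1%) and in the compounds' comparison at 1500 nM (36.5%). The counts of 1 or 2 of 6 are close to the shares of all genes, apart from the test of the dose steps. These shares depend on the scaling. Scaled by library size alone, 2089 genes were higher and 3364 lower between the compounds at 3750 nM (3080 and 2371 with TMM, the scaling used here), and 1614 higher and 2802 lower at 1500 nM (2527 and 1881). Against DMSO the higher and lower genes numbered 1322 and 896 for SGI-1776 at 1500 nM (924 and 1339 with TMM), 3737 and 2623 at 3750 nM (3016 and 3217), 120 and 222 for SGI-1776-VHL-02 at 1500 nM (187 and 149), and 1765 and 2153 at 3750 nM (2011 and 1796). The calls of MT2A and MT1X held under library size alone, and MT1F missed the threshold between the compounds at 3750 nM.

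MT2A, MT1X and MT1F were more alike over all libraries than within groups, and MT1M followed them little. With each library taken as its deviation from its Rep mean, the log2 levels of MT2A and MT1X had a Pearson correlation of 0.71 over the 30 libraries, and of 0.34 when deviations from the mean of the same group and Rep were used. The values were 0.46 and 0.04 for MT2A with MT1F, 0.48 and 0.04 for MT1X with MT1F, and -0.34 and -0.06 for MT2A with SLC30A1. MT1M had 0.29 and 0.03 with MT2A, 0.20 and 0.12 with MT1X, and 0.08 and -0.12 with MT1F. These are descriptions over libraries that share groups and Reps.

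The genes whose level followed MT2A most closely over the 30 libraries, among 10841 protein-coding genes with a mean of at least 5 CPM, were FXYD5, a regulator of the sodium pump (r = 0.94), SOCS2, a suppressor of cytokine signalling (r = 0.94), ANXA3, an annexin (r = 0.93), WNT7A, a secreted signalling ligand (r = 0.92), and FHL2, a LIM-domain cofactor (r = 0.92). SOCS2 had the same order of groups with larger steps: its log2 fold change was 1.20 ± 0.08 between the compounds at 3750 nM (adjusted p = 3.89e-13), 0.68 ± 0.08 for SGI-1776-VHL-02 at 3750 nM against DMSO and -0.52 ± 0.08 for SGI-1776 at 3750 nM against DMSO. As SOCS2 was picked by its correlation in these same libraries, a like order of groups follows from the choice and its p-value is no separate evidence. The genes most like SLC30A1 had lower correlations: PCYOX1 (0.78), ATP11A (0.76), GLG1 (0.75), SYT16 (0.75) and SYNRG (0.74). All these correlations used each library's deviation from its Rep mean, and correlations within groups were not computed for these genes.

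Other zinc transporters were called in both directions. For the counts of these and the following lists, the shares of all tested genes called higher and lower were 17.2% and 18.4% with SGI-1776 at 3750 nM against DMSO, and 11.5% and 10.3% with SGI-1776-VHL-02 at 3750 nM against DMSO. Between the compounds they were 17.6% and 13.5% at 3750 nM and 14.4% and 10.7% at 1500 nM. Of the 9 other SLC30 exporters, 5 were tested. SGI-1776 at 3750 nM raised 2, SLC30A5 (0.17 ± 0.04; adjusted p = 0.00110) and SLC30A7 (0.14; adjusted p = 0.0489), which both load zinc into the secretory pathway. SLC30A5 also rose at 1500 nM (0.13; adjusted p = 0.0355), and SGI-1776-VHL-02 at 3750 nM raised SLC30A7 (0.16 ± 0.06; adjusted p = 0.0308). Without the block neither comparison between the compounds passed for any of the 5, and with it SLC30A5 was lower with SGI-1776-VHL-02 at 3750 nM (-0.10; adjusted p = 0.0180, against 0.0597). The block also added SLC30A7 with SGI-1776 at 1500 nM against DMSO (0.13; adjusted p = 0.0373). For genes of these lists the log2 values beside a blocked p are those without the block. The median over the 5 was 0.09 with SGI-1776-VHL-02 at 3750 nM against DMSO, where the median of all tested genes was 0.003.

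Of the 14 SLC39 importers, which bring zinc into the cytosol, 11 were tested. SGI-1776 at 3750 nM raised 3 and lowered 4 (median 0.02), and SGI-1776-VHL-02 at 3750 nM raised 3 and lowered 1 (median 0.05), beside 35.6% and 21.8% of all tested genes called in either direction. Between the compounds at 3750 nM, 3 were higher and 1 lower with SGI-1776-VHL-02, and at 1500 nM 4 were higher and 2 lower. SLC39A14, a plasma-membrane importer of zinc and iron, had the order seen for MT2A: at 3750 nM SGI-1776 lowered it (-0.18 ± 0.05; adjusted p = 0.00391), SGI-1776-VHL-02 raised it (0.13; adjusted p = 0.0489), and the 2 compounds differed by 0.32 (adjusted p = 7.00e-06). SLC39A7, which releases zinc from the endoplasmic reticulum, went the other way, at 0.28 ± 0.06 for SGI-1776 against DMSO (3750 nM; adjusted p = 0.000417) and -0.21 between the compounds (adjusted p = 0.00760). SLC39A11 rose with both compounds at 3750 nM, by 0.20 with SGI-1776 (adjusted p = 0.00393) and by 0.29 ± 0.05 with SGI-1776-VHL-02 (adjusted p = 0.000212).

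Larger changes were found among genes of oxidative and metal stress, of which 12 of 12 were tested. Between the compounds at 3750 nM, 7 were higher and 2 lower with SGI-1776-VHL-02 (median 0.22), against DMSO 3 rose and 2 fell (median 0.06), and with SGI-1776 at 3750 nM 4 rose and 3 fell (median -0.02). Of all tested genes 31.2%, 21.8% and 35.6% were called in either direction in these comparisons. HMOX1, the haem oxygenase that is a common reporter of metal and oxidative stress, had a mean of 11.2 ± 0.794 CPM in DMSO and 21.7 ± 1.25 CPM with SGI-1776-VHL-02 at 3750 nM (SD, n = 6). Its log2 fold change was 0.95 ± 0.06 against DMSO (adjusted p = 8.37e-13) and 1.03 ± 0.06 against SGI-1776 (adjusted p = 1.03e-13), and its dose steps also differed between the compounds (0.49; adjusted p = 0.00124).

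SLC7A11, the cystine importer that feeds glutathione synthesis, rose with both compounds at 3750 nM, by 1.12 ± 0.13 with SGI-1776-VHL-02 (adjusted p = 1.16e-07) and by 0.52 with SGI-1776 (adjusted p = 0.00228). GCLM, a subunit of the enzyme that starts glutathione synthesis, was lowered by the 3750 nM dose of SGI-1776 (-0.43 ± 0.06; adjusted p = 7.98e-07) and had a value of 0.06 with SGI-1776-VHL-02 (adjusted p = 0.580). SELENOW, a small selenoprotein, was raised by the same dose of SGI-1776 (0.25; adjusted p = 0.00302) and lowered by SGI-1776-VHL-02 (-0.30 ± 0.07; adjusted p = 0.000939). The members of this list thus did not share one direction.

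**Figure D4:**
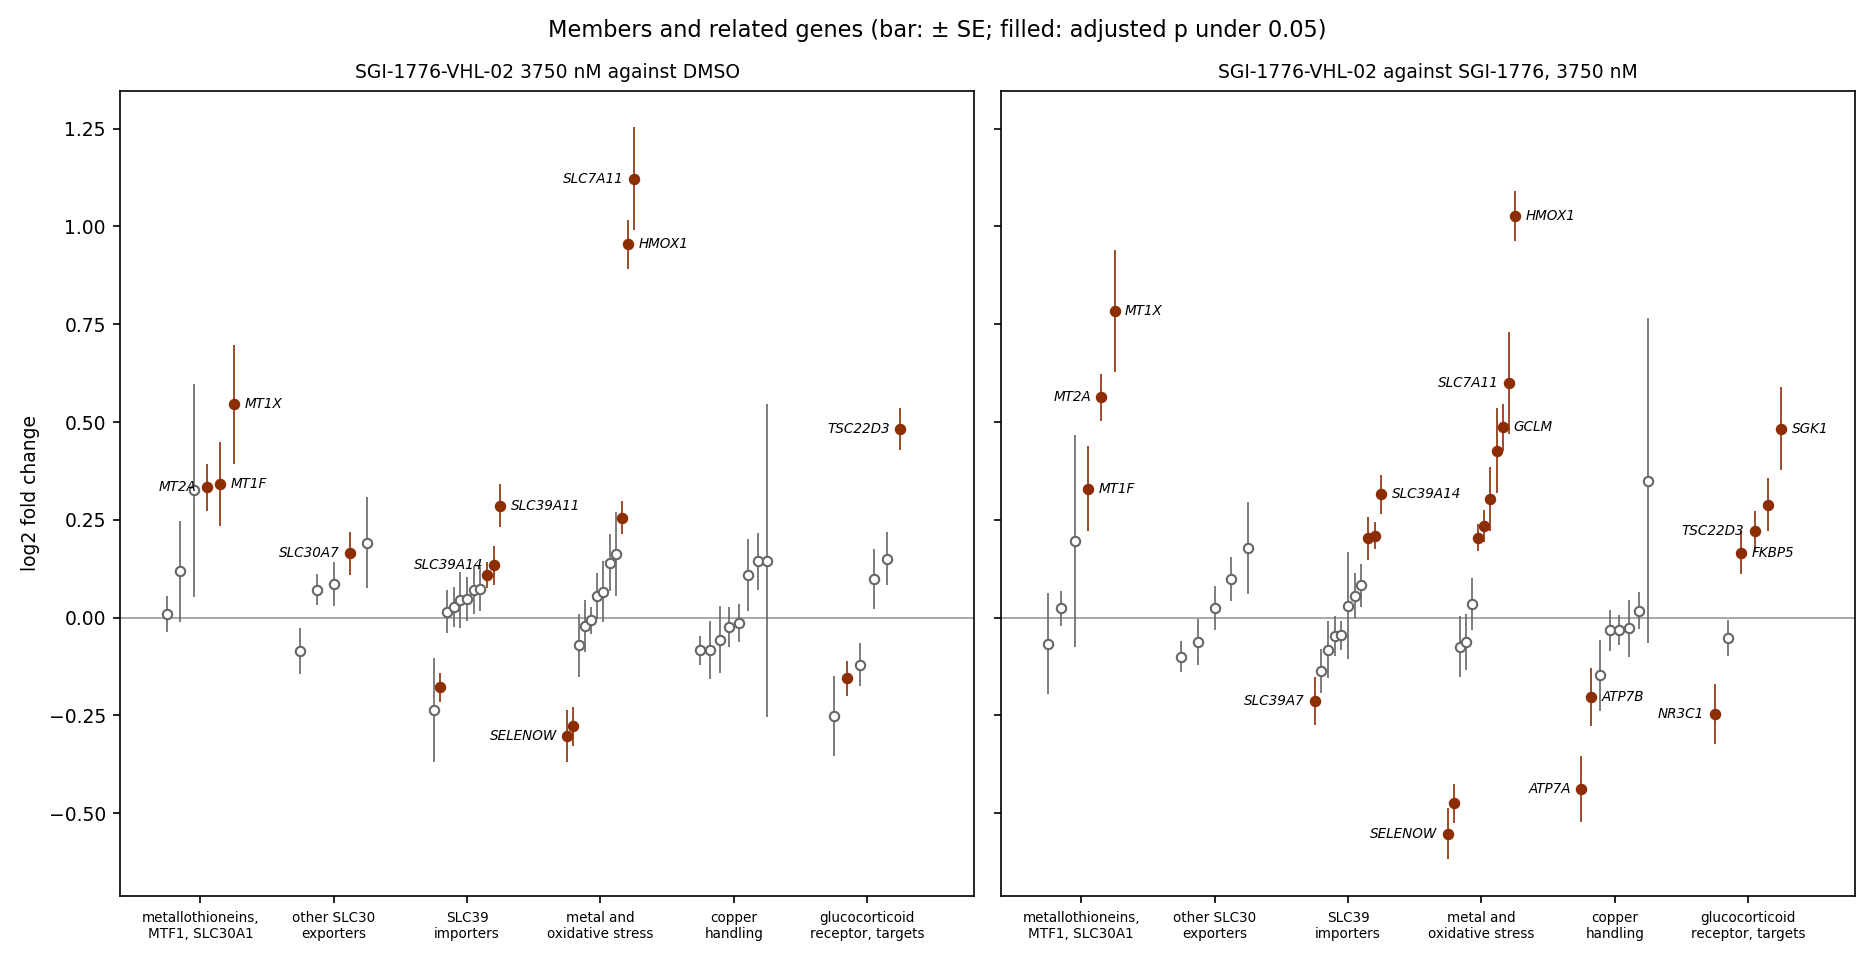
Log2 fold changes with SE of the 6 tested members and of the tested genes of 5 related lists, for SGI-1776-VHL-02 at 3750 nM against DMSO (left) and against SGI-1776 at 3750 nM (right); filled points have an adjusted p under 0.05, and the genes named in the text are labelled. HMOX1 lies at 0.95 and 1.03, above the metallothioneins in both panels, and ATP7A lies at -0.44 in the right panel.

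Copper handling, of which 8 of 8 genes were tested, showed no call with SGI-1776-VHL-02 at 3750 nM against DMSO without the block, and with it SLC31A1, a copper importer named here after its values were seen, passed (0.14; adjusted p = 0.00752, against 0.175). SLC31A1 also passed with the block for SGI-1776 at 3750 nM against DMSO (0.17; adjusted p = 0.00108, against 0.0692). Between the compounds at 3750 nM it had a value of -0.03 (adjusted p = 0.661 with the block). Without the block SGI-1776 at 3750 nM raised 2, ATP7A, a copper-exporting ATPase (0.38 ± 0.08; adjusted p = 0.000602), and CCS, the copper chaperone of SOD1 (0.26; adjusted p = 0.0276). Between the compounds at 3750 nM 2 were lower with SGI-1776-VHL-02, ATP7A (-0.44 ± 0.09; adjusted p = 0.000157) and ATP7B, its relative (-0.20; adjusted p = 0.0366). At 1500 nM the compounds differed in SOD1, the copper-zinc superoxide dismutase (0.10; adjusted p = 0.0479). With the block they also differed there in ATP7A (-0.21; adjusted p = 0.0241) and CCS (-0.22; adjusted p = 0.00173).

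Of the glucocorticoid receptor gene and its targets 6 of 8 were tested. Between the compounds at 3750 nM, 4 were higher and 1 lower with SGI-1776-VHL-02 (median 0.19), and against DMSO 1 rose and 1 fell (median -0.01). SGK1, a kinase induced by glucocorticoids, was lowered by the 3750 nM dose of SGI-1776 (-0.73 ± 0.10; adjusted p = 1.57e-06). With SGI-1776-VHL-02 at 3750 nM against DMSO it had a value of -0.25 (adjusted p = 0.0770, and 0.0216 with the block). SGK1 was higher with SGI-1776-VHL-02 than with SGI-1776 by 0.48 (adjusted p = 0.000624). TSC22D3, a leucine-zipper protein induced by glucocorticoids, rose with both compounds at 3750 nM, by 0.48 ± 0.05 with SGI-1776-VHL-02 (adjusted p = 3.54e-08) and by 0.26 with SGI-1776 (adjusted p = 0.000243). NR3C1, the receptor itself, was raised by SGI-1776 at 3750 nM (0.35 ± 0.08; adjusted p = 0.000567), had a value of 0.10 with SGI-1776-VHL-02 (adjusted p = 0.419), and was lower with SGI-1776-VHL-02 than with SGI-1776 by a log2 fold change of -0.25 (adjusted p = 0.0128). FKBP5, a receptor co-chaperone, was lowered by SGI-1776 at 3750 nM (-0.29; adjusted p = 0.000121), had a value of -0.12 with SGI-1776-VHL-02 (adjusted p = 0.125), and was higher with the latter than with SGI-1776 by 0.17 (adjusted p = 0.0216).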

How the data were processed

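Per the labels, RNA of PC3 cells was extracted with a Qiagen kit, selected on poly-T beads and copied with random hexamers. Because the labels offer both dUTP and dTTP second strands, it is not known whether the counting used strand. The deposited values are raw counts per gene, made by the authors with featureCounts 1.5.0-p3 on GRCh38/hg38 per the submitters' processing notes. The sources used here do not name the aligner.

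Groups were taken from the labels. Counts were tested with edgeR 4.0.16 in R 4.3.3 (limma 3.58.1), with filterByExpr, TMM scaling, 1 coefficient per group over all 30 libraries, and two-sided quasi-likelihood F tests with Benjamini-Hochberg adjustment over all 17499 genes tested. CPM values are counts divided by the TMM-effective library size, log2 CPM used a prior count of 2, and levels per kilobase used the deposited gene length. The procedure was tested on simulated data with independent libraries and no difference between Reps. That test therefore does not cover a spread shared by the libraries of a Rep. Alternatives were no filter, other scalings, DESeq2 1.42.0, the Rep number as a block, summed libraries, and leaving out libraries.

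The main tests held no term for the Rep number. In the fits with a block and in the correlations, the Rep numbers were taken to pair the groups. The difference of Rep 2 from Rep 1 across genes correlated between groups at 0.507 to 0.672 over 10 pairs of groups. Where the labels do not separate cultures, p-values measure only the spread between libraries. No 2 libraries held identical values, and the lowest chi-square per gene within a group was 1.93 over 75 pairs.

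The members and gene lists were chosen with earlier results of these data known. All members were named. Of each related list, up to 4 genes per list with the largest absolute change that passed against DMSO or between the compounds were named. The 5 protein-coding genes most like MT2A and SLC30A1 were named by correlation. Gene positions matched GENCODE 29 and promoter sequences came from RefSeq. Depth limits are counting limits only, since the labels mention no molecular identifiers to tell PCR copies apart.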

Additional observations from a re-analysis of the deposited data

Results flagged for a closer look

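The log2 difference between the dose steps of the 2 compounds was 0.33 for MT2A, by a test of the difference itself (adjusted p = 0.0273, edgeR's quasi-likelihood test). MT2A was higher at 3750 than at 1500 nM of SGI-1776-VHL-02 and not shown to differ between the doses of SGI-1776. No library stood apart from the others of its group in any of the 30 groups of 6 libraries examined for the members.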

How the results depend on the processing

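Over 54 member values, no call changed direction under any alternative, and DESeq2 and RLE scaling kept every call and miss. With the replicate block the members called numbered 2 for SGI-1776 at 1500 nM against DMSO, 2 at 3750 nM against DMSO and 2 between the compounds at 1500 nM, and the block changed no other member call. Without the low-count filter the dose-step test called 0 (MT2A adjusted p = 0.0640), and MT1F missed the threshold against DMSO (0.0526) and between the compounds at 3750 nM (0.0555). With library size only, MT1F missed it between the compounds (0.0508), and 4 values of MTF1 that had not passed changed sign.

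Summing the 3 libraries of each Rep leaves 2 samples per group. Then 0 members were called for SGI-1776 at 3750 nM against DMSO, 0 for SGI-1776-VHL-02 at 3750 nM against DMSO, 0 between the compounds at 1500 nM, 0 between the doses of SGI-1776-VHL-02 and 0 for the dose steps, while MT2A (adjusted p = 0.0158) and MT1X (0.0162) still passed between the compounds at 3750 nM. Summed with the block, 1, 2 and 2 were called for SGI-1776 at 1500 nM and at 3750 nM against DMSO and between the compounds at 1500 nM. The cause was not tested. The shares of all tested genes called in these summed fits were not counted, so the members' counts cannot be set beside them.

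Without Rep 1, 1 member was called for SGI-1776-VHL-02 at 3750 nM against DMSO and 0 between the compounds at 1500 nM. Without Rep 2, 2 were called for SGI-1776 at 3750 nM against DMSO, the second being SLC30A1 (0.33; adjusted p = 0.00511), and MT1X missed the threshold against DMSO (0.0887) and between the doses (0.0969). Leaving out 1 library at a time, the dose-step test called 0 to 1 and MT1F was lost against DMSO in 6 of 30 fits. Leaving out the 4 libraries under 0.5% mitochondrial counts kept every member call. Shares of all tested genes called were not counted for the fits without the low-count filter, without a Rep or without single libraries. Depth limits MT1M and MT1E most.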
